A study of Mus musculus with 10 samples.

Results

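Interferon-stimulated genes are the genes that cells switch on when they sense virus or receive interferon. A set of 42 such genes was followed here, made up of sensors of foreign nucleic acid, regulators of the interferon signal, antiviral effectors and 3 genes of antigen processing. They were chosen by name, with earlier results of these data known, from the 23358 rows of the deposited gene table. All 42 had counts in at least 1 library, and 40 passed the filter on low counts (Oasl1 and Rsad2 did not). Of the 42, 34 had a mean of 1 or more CPM (counts scaled to library size) over the libraries, and 8 had less (Zbp1, Oas1a, Oas3, Oasl1, Mx1, Mx2, Rsad2 and Cmpk2).

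The cells were MC3T3, a mouse calvarial pre-osteoblast line, grown in osteogenic medium (ascorbic acid plus beta glycerol phosphate). The treated cultures received 5 µM GSK126, an inhibitor of EZH2, when osteogenic medium was first added and once more after 3 days, and the controls received vehicle on the same schedule. On day 6 both were withdrawn and the cultures continued in osteogenic medium alone. Each treatment gave 1 RNA library on each of days 3, 6 and 10 (6 libraries), and H3K27me3, the histone mark that EZH2 writes, was profiled with input DNA 24 hours after the first dose with 1 library of each kind per treatment.

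The 6 RNA libraries held 97291878 to 111537936 counts, and every deposited count was even. Each treatment had a lone library on a given day, so single days could not be tested, and the labels do not state whether the libraries stem from separate experiments. The 7 osteoblast markers were all measured, with summed levels of 55916, 76244 and 75404 CPM with GSK126 on days 3, 6 and 10, against 60106, 69938 and 54512 CPM with vehicle. Most of the osteoblast sum was Col1a1 and Col1a2, which were slightly lower with GSK126 on day 3. Runx2, Sp7, Alpl, Bglap and Ibsp were higher with GSK126 on each day. Ibsp had 60794, 195424 and 327082 counts with GSK126, against 20362, 41980 and 52884 with vehicle. Of 10 markers of macrophages and other blood cells, Fcgr3 and Emr1 were at 0 in all 6 libraries, and the summed level of the 10 was 13.7, 21.6 and 15.1 CPM with GSK126, against 8.99, 12.3 and 20.9 CPM with vehicle. Most of that sum was Lyz2. The part of these markers in the results on interferon-stimulated genes was not tested.

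In mammalian cells, RNA sensors such as RIG-I (Ddx58) and MDA5 (Ifih1) signal through the adaptor MAVS to turn on type I interferon. Interferon then acts on its receptor, and a complex that includes STAT2 and IRF9 binds a short promoter element, the interferon-stimulated response element (ISRE). Many uninfected cells keep a low level of these transcripts through tonic signalling. EZH2 is the catalytic subunit of Polycomb repressive complex 2.

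The following sequences show the ISRE core in members on which the results turn, and the matching stretch of Xaf1, the member whose values ran the other way. They are from RefSeq on GRCm38.p6, written 5′ to 3′ on the gene's strand. Capitals mark the ISRE core, which is GAAA, any 2 bases and GAAA, on either strand, and overlapping matches run together. The first 4 are the 150 bases before the RefSeq start of the gene, at chr4:156200819-156200968 on the minus strand for Isg15, chr19:34640739-34640888 on the plus strand for Ifit1, chr8:71537473-71537622 on the minus strand for Bst2 and chr11:72301479-72301628 on the plus strand for Xaf1. The last 2 are the first 30 bases of the transcribed 5′ end, at chr4:40239796-40239825 on the minus strand for Ddx58 and chr7:141010715-141010744 on the minus strand for Ifitm3.
Isg15: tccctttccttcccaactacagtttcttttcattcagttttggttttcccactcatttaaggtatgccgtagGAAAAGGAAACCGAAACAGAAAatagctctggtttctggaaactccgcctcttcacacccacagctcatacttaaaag
Ifit1: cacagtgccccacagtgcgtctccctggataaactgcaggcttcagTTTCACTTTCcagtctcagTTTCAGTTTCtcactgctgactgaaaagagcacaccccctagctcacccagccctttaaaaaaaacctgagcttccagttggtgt
Bst2: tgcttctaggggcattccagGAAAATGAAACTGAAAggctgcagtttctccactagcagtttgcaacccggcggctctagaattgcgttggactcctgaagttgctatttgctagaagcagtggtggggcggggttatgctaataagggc
Xaf1: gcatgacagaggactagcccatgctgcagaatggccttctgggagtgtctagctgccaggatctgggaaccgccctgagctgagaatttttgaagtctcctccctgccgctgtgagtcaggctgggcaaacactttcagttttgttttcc
Ddx58: agTTTCGATTTCctatggccagccggctag
Ifitm3: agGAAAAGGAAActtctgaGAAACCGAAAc

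The capitals hold 3 overlapping matches in Isg15, 2 in Ifit1, 2 overlapping in Bst2, 1 in Ddx58 and 2 in Ifitm3. The window searched ran from 250 bases before to 50 bases after each start, 300 bases in all. Of the 32 members with a promoter in the RefSeq table, 14 (43.8%) held the ISRE core on either strand, against 3.99% of 27025 genes. The STAT site, which is TTC, any 3 bases and GAA, and whose pattern is the same on both strands, can overlap the ISRE core and was found in 10 of 32 members (31.3%), against 9.55% of genes. The Xaf1 window held neither set of letters, which says only that these letters are not in that window. The 14 members with the ISRE core had median log2 ratios of GSK126 over vehicle of -0.07, -0.78 and -0.91 on days 3, 6 and 10, and the 18 without it had -0.03, -0.53 and -0.42. Members with no promoter in that table were in neither group (Dhx58, Ifi27l2a, Mx1, Mx2, Oas2, Parp14, Parp9, Rtp4, Usp18 and Zbp1). Their day 10 ratios ran from -4.17 (Oas2) to -0.33 (Dhx58). The lowest day 10 ratios of all 42 members, those of Oas2, Zbp1 and Ifi27l2a, were among them. The window was not used to choose members, and the difference between these groups was not tested.

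On day 3 the members stood on both sides of their vehicle values, and on days 6 and 10 nearly all stood below them. A log2 ratio here compares 1 GSK126 with 1 vehicle library of the same day in TMM-normalised CPM, with a prior count of 2. Below 0 were 22 of 42 members on day 3, 37 on day 6 and 41 on day 10, against 50.5%, 49.8% and 51.2% of the 14344 genes tested. Xaf1 was the 1 member above 0 on day 10. In these bulk libraries, fewer cells with a transcript and less of it per cell cannot be told apart.

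The 34 members with a mean of 1 CPM or more give the sizes with less counting error. On days 3, 6 and 10 the median of their log2 ratios stood at -0.06, -0.70 and -0.81, against -0.01 on each day for the 11746 genes at that level. At least 2-fold lower with GSK126 were 0, 10 and 11 of the 34, where 0.128%, 2.0% and 2.15% of genes were. At least 2-fold higher were 3, 2 and 1, where 1.70%, 3.26% and 2.53% of genes were. The exact binomial 95% interval, taken on fragments and covering counting error only, lay wholly below 0 for 13, 27 and 31 of the 34, against 26.9%, 35.0% and 33.6% of genes, and wholly above 0 for 6, 3 and 1, against 20.8%, 32.5% and 33.6%. The share of members with an interval below 0 was thus far above the background on days 6 and 10, and nearer to it on day 3.

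The sum over all 42 members was 797, 540.2 and 591 CPM with GSK126 on days 3, 6 and 10, against 916, 763 and 816 CPM with vehicle. Without Xaf1 it was 779.8, 483 and 543 CPM with GSK126, against 903, 750.4 and 800.0 CPM with vehicle. The GSK126 sum was the lower one on every day with and without Xaf1. Per length, Ifitm3 was the most abundant member, with a mean deposited RPKM of 123 over the 6 libraries, followed by Ifi27l2a at 20.7, Samd9l at 16.4 and Psmb8 at 13.5. Xaf1 stood at rank 10 with 8.19, and Rsad2 was the least abundant with 0.0079.

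**Figure D1:**
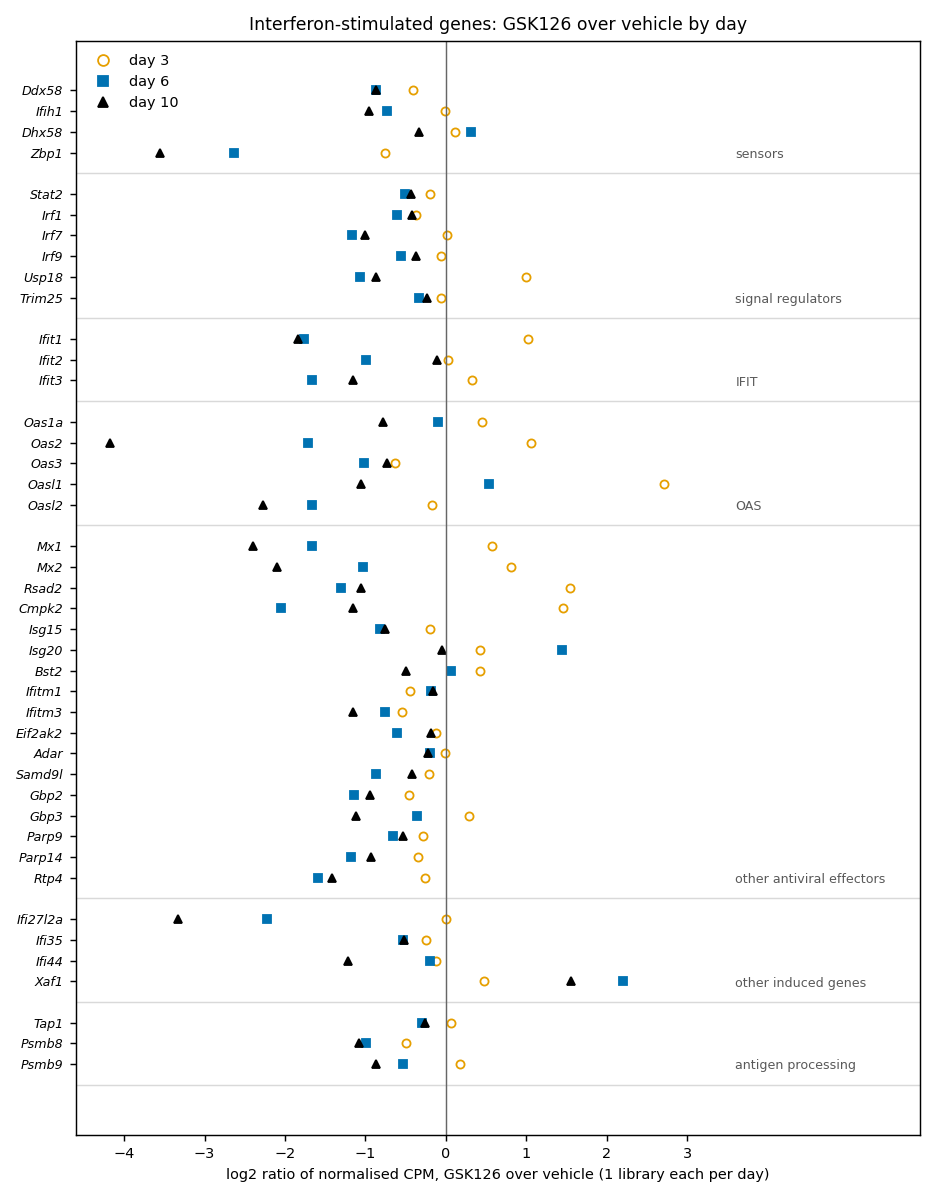
Log2 ratio of TMM-normalised CPM, GSK126 over vehicle, for all 42 members (rows, grouped by role) on day 3 (open circles), day 6 (squares) and day 10 (triangles), 1 library per treatment and day. On day 10, 41 of 42 triangles lie left of 0 and Xaf1 lies at 1.55; Oasl1, Mx1 and Rsad2 had a GSK126 library at 0 counts on day 10, so their points there depend on the prior count.

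By sign, 22 members were below 0 on all 3 days, as were 22.7% of genes tested. A further 15 were above 0 on day 3 and below 0 on both later days, as were 9.37% of genes. Dhx58, Isg20, Bst2 and Oasl1 were above 0 on days 3 and 6 and below 0 on day 10. Xaf1 alone was above 0 on every day, as were 22.1% of genes.

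Among the sensors, Ddx58 (chr4:40203777-40239825 in mm10), which encodes RIG-I, had 5598, 2822 and 2910 counts with GSK126 on days 3, 6 and 10, against 7530, 5362 and 5458 with vehicle. Its GSK126 count was the lower one on each day, with log2 ratios of -0.41, -0.87 and -0.87. Ifih1, which encodes MDA5, had 712, 328 and 298 counts with GSK126, against 728, 566 and 596 with vehicle. On day 3 the Ifih1 libraries were alike, and on the later days the GSK126 libraries held the lower counts (log2 ratios of -0.01, -0.73 and -0.96). Zbp1, a sensor of Z-form nucleic acid, was scarce and had 26, 4 and 4 counts with GSK126, against 46, 36 and 68 with vehicle. Dhx58, which encodes LGP2, a helicase that modulates the other sensors of its family, had 526, 694 and 732 counts with GSK126, against 492, 580 and 944 with vehicle. Dhx58 thus had small ratios of changing sign (0.11, 0.31 and -0.33).

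The 6 regulators of the signal were all below 0 on days 6 and 10. Stat2, a subunit of the ISRE-binding complex, had 3480, 2228 and 1946 counts with GSK126, against 4052, 3284 and 2690 with vehicle. Its partner Irf9 had 1210, 566 and 638 counts with GSK126, against 1274, 862 and 850 with vehicle. Irf7, which amplifies interferon production, had 236, 88 and 122 counts with GSK126, against 236, 208 and 254 with vehicle. Irf7 was equal on day 3 and lower by about a log2 unit on both later days (-1.17 and -1.01). Irf1, which also answers interferon gamma, had 3400, 2388 and 3448 counts with GSK126, against 4472, 3780 and 4750 with vehicle, and was lower on each day (-0.38, -0.61 and -0.42). Trim25, a ubiquitin ligase that acts on RIG-I, had log2 ratios of -0.06, -0.34 and -0.23. Usp18, which removes ISG15 from proteins and restrains receptor signalling, had 354, 80 and 44 counts with GSK126, against 178, 176 and 84 with vehicle. Usp18 was 2.0-fold higher with GSK126 on day 3 and lower on days 6 and 10 (log2 ratios of 1.00, -1.07 and -0.87).

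The IFIT genes stand together on chromosome 19 and encode proteins that bind viral RNA. Ifit1 had 470, 74 and 34 counts with GSK126, against 234, 266 and 130 with vehicle. Ifit3 had 236, 74 and 120 counts with GSK126, against 190, 248 and 276 with vehicle. Ifit2 had 2858, 1236 and 2244 counts with GSK126, against 2852, 2560 and 2478 with vehicle. Ifit1 was thus 2.03-fold higher with GSK126 on day 3 and 3.41-fold and 3.59-fold lower on days 6 and 10, and all 3 genes were lower on day 6 (log2 ratios of -1.77, -1.0 and -1.67 for Ifit1, Ifit2 and Ifit3). On day 10 the Ifit2 ratio was -0.11, with an interval that included 0.

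The OAS genes encode enzymes that make the activator of RNase L, and the OAS-like genes encode their relatives. Oas2 had 334, 38 and 4 counts with GSK126, against 162, 134 and 106 with vehicle. On day 3 it was 2.07-fold higher with GSK126, and on day 10 the GSK126 library held nearly none of it. Oasl2 had 362, 68 and 50 counts with GSK126, against 412, 228 and 256 with vehicle, so its libraries parted after day 3 (log2 ratios of -0.17, -1.67 and -2.28). Oas3 had 58, 38 and 32 counts with GSK126, against 92, 82 and 56 with vehicle. Oas1a had 44, 18 and 14 counts with GSK126, against 32, 20 and 26 with vehicle, and the interval of Oas1a included 0 on every day. Oasl1 had 38, 12 and 0 counts with GSK126, against 4, 8 and 2 with vehicle, and its 38 counts on day 3 were the highest value of the 6 libraries.

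The 17 other antiviral effectors were all below 0 on day 10, 15 were on day 6 and 10 were on day 3. Ifitm3 (chr7:141009590-141010744), whose protein blocks the entry of enveloped viruses, had 13054, 5858 and 4624 counts with GSK126, against 19228, 10226 and 10582 with vehicle. The GSK126 count was the lower one on each day, by 1.45-fold, 1.68-fold and 2.23-fold. Its neighbour Ifitm1 had 1162, 834 and 1488 counts with GSK126, against 1598, 980 and 1710 with vehicle, with its largest difference on day 3 (-0.44). Isg15, a ubiquitin-like modifier, had 774, 256 and 262 counts with GSK126, against 900, 468 and 454 with vehicle. Rtp4, a transporter protein with antiviral action, had 508, 126 and 106 counts with GSK126, against 616, 396 and 294 with vehicle. Both were close to vehicle on day 3 and clearly below it later (Isg15 -0.20, -0.81 and -0.75, and Rtp4 -0.26, -1.59 and -1.42).

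Gbp2, an interferon-induced GTPase, had 718, 342 and 618 counts with GSK126, against 996, 786 and 1226 with vehicle. Parp14, an ADP-ribosyltransferase, had 1552, 676 and 798 counts with GSK126, against 1998, 1590 and 1558 with vehicle, and its relative Parp9 had 2980, 1790 and 2274, against 3674, 2932 and 3388. These 3 were lower on each day. Samd9l, an antiviral factor that restrains translation, had 13126, 6302 and 9252 counts with GSK126, against 15340, 11944 and 12684 with vehicle, and was lowest on day 6 (log2 ratio of -0.87). Eif2ak2, the RNA-activated kinase PKR, had 9274, 4510 and 4968 counts with GSK126, against 10210, 7096 and 5804 with vehicle. Adar, which edits double-stranded RNA, had small ratios (-0.01, -0.20 and -0.23), and Gbp3 had 0.29, -0.36 and -1.11.

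Isg20 and Bst2 were the effectors above 0 on both day 3 and day 6. Isg20, an exonuclease, had 378, 1012 and 836 counts with GSK126, against 284, 384 and 884 with vehicle. It was 2.72-fold higher with GSK126 on day 6 and equal within counting error on day 10. Bst2, the virion tether tetherin, had 898, 614 and 692 counts with GSK126, against 680, 606 and 1002 with vehicle, so that it was higher on day 3 and lower on day 10 (0.42 and -0.50), and its promoter holds the ISRE core printed above. The GTPases Mx1 and Mx2, the radical enzyme Rsad2 and its neighbour Cmpk2 were scarce, with 0 to 64 counts per library. Cmpk2 had 58, 6 and 6 counts with GSK126, against 20, 32 and 16 with vehicle. Mx2 had 64, 18 and 10 counts with GSK126, against 36, 40 and 50 with vehicle. All 4 were above 0 on day 3 and below 0 on days 6 and 10, as far as so few counts can show.

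Of the other induced genes, Ifi27l2a, which encodes a small membrane protein, was equal in both treatments on day 3 and far apart later. It had 2410, 324 and 88 counts with GSK126 on days 3, 6 and 10, against 2430, 1574 and 928 with vehicle. Its log2 ratio was 0.01 on day 3, and it was 4.67-fold and 10.1-fold lower with GSK126 on days 6 and 10. Ifi35 was lower on each day (-0.24, -0.53 and -0.52), and Ifi44 had -0.12, -0.20 and -1.21. Of the antigen processing genes, which lie together on chromosome 17, the immunoproteasome subunit Psmb8 (chr17:34198195-34201454) had 1924, 1092 and 1522 counts with GSK126, against 2758, 2254 and 3310 with vehicle. Psmb8 was 1.41-fold, 1.99-fold and 2.12-fold lower with GSK126. Its partner Psmb9 had 914, 552 and 694 counts with GSK126, against 818, 826 and 1300 with vehicle, and the peptide transporter subunit Tap1 had 6632, 4692 and 3098, against 6438, 5994 and 3800. Both were within counting error of vehicle on day 3 and below it on the later days.

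**Figure D2:**
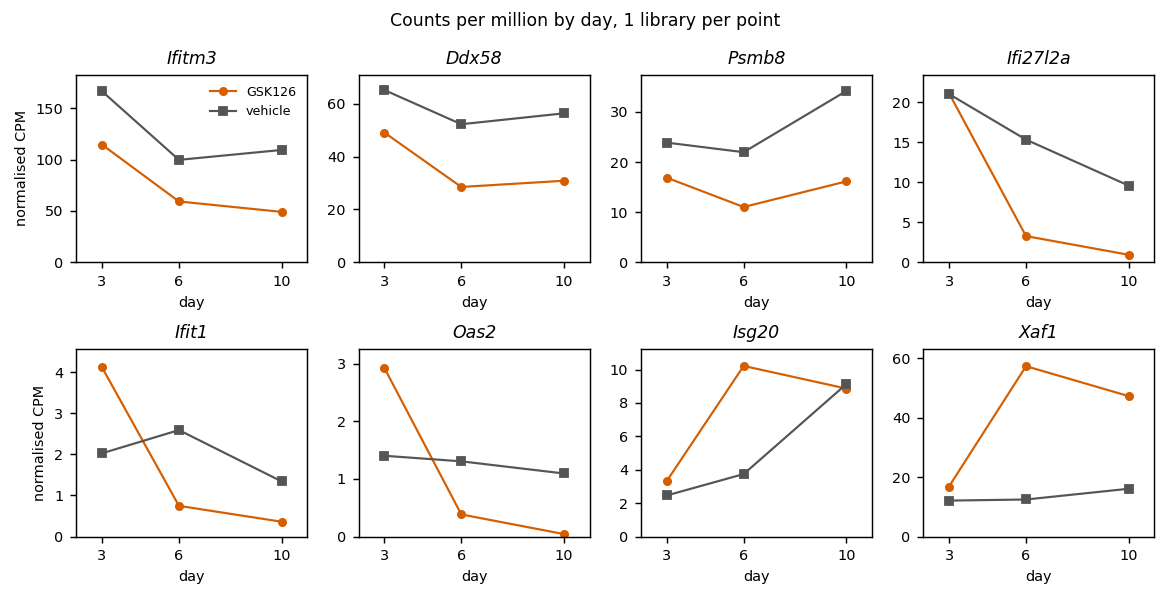
TMM-normalised CPM of 8 members on days 3, 6 and 10 with GSK126 (orange circles) and vehicle (grey squares), 1 library per point and no replicates, with a y axis from 0 in each panel. Ifitm3, Ddx58 and Psmb8 were lower with GSK126 on each day. Ifi27l2a was equal on day 3 and lower with GSK126 later. Ifit1 and Oas2 were higher with GSK126 on day 3 and lower on days 6 and 10. Isg20 and Xaf1 were higher on day 6.

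Xaf1 (chr11:72301629-72313733) encodes a partner of the X-linked inhibitor of apoptosis and is itself induced by interferon. It had 1920, 5682 and 4460 counts with GSK126 on days 3, 6 and 10, against 1398, 1280 and 1558 with vehicle. All 3 GSK126 counts were above all 3 vehicle counts. The log2 ratios were 0.48 on day 3 (95% counting interval 0.33 to 0.62), 2.20 on day 6 (2.08 to 2.33) and 1.55 on day 10 (1.44 to 1.67), and on day 6 the GSK126 library held 4.59-fold more. With vehicle, Xaf1 had 12.1, 12.5 and 16.1 CPM, so most of its spread lay in the GSK126 libraries, at 16.8, 57.4 and 47.3 CPM.

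Likeness of profile was measured as the root mean square difference of centred log2 CPM over the 6 libraries, with no test. The member nearest to Xaf1 was Isg20 at 0.59, followed by Dhx58 at 0.80. Among 1640 eligible genes outside the 42, the 5 nearest to Xaf1 were Chst11 (0.20), a chondroitin sulfotransferase, Lpar2 (0.22), a receptor for lysophosphatidic acid, Pth1r (0.23), the parathyroid hormone receptor, Mef2c (0.23), a transcription factor, and Arl4c (0.23), a small GTPase. Chst11 had 3630, 9372 and 8374 counts with GSK126, against 2238, 3152 and 2950 with vehicle. Nearest to the median profile of the 34 members among 7243 eligible genes were Layn (0.05), Igtp (0.07), Prtg (0.08), Dtx3l (0.08) and Asah2 (0.09). Igtp is an interferon-inducible GTPase and Dtx3l the ubiquitin ligase that partners Parp9, and both were already in the list of further interferon-stimulated genes given below. From that median profile Xaf1 lay 1.23 away, Ifi27l2a 1.36 and Oas2 1.56, while Ifih1 was the closest member at 0.12.

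Whether the difference held over the 3 days was asked with edgeR's quasi-likelihood test on all 14344 genes, with day and treatment as terms. No member was called at a Benjamini-Hochberg adjusted p below 0.05: 0 of 40 were higher, where 1.01% of genes were, and 0 were lower, where 0.272% were. At an unadjusted p below 0.05, 1 member was higher and 20 were lower, against 9.86% and 9.75% of genes. The fitted log2 difference of GSK126 minus vehicle was negative in 37 of 40, with a median of -0.50, against 50.2% of all genes and a median of -0.00076.

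The members nearest to a call were Ifitm3 with a fitted difference of -0.82 (SE 0.13, edgeR adjusted p = 0.0553), Psmb8 with -0.86 (SE 0.13, edgeR adjusted p = 0.0557) and Ddx58 with -0.72 (SE 0.11, edgeR adjusted p = 0.0577). All 3 were lower with GSK126 on 3 of 3 days. They were followed by Irf1 with -0.47, Gbp2 with -0.85, Parp9 with -0.49 and Parp14 with -0.82, at edgeR adjusted p from 0.0653 to 0.0891. Xaf1 had 1.42 (SE 0.32, edgeR adjusted p = 0.0995), higher on 3 of 3 days. The 2 other positive fits were Isg20 with 0.61 (SE 0.29) and Dhx58 with 0.03. The most negative fits belonged to genes that varied widely between days, Zbp1 with -2.34 (SE 0.68), Ifi27l2a with -1.79 (SE 0.65) and Oasl2 with -1.34 (SE 0.44).

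The count of calls depended on the tool and on day 3. DESeq2 called 13 members lower (Ddx58, Gbp2, Ifi35, Ifitm3, Irf1, Oasl2, Parp14, Parp9, Psmb8, Rtp4, Samd9l, Stat2 and Zbp1), where it called 4.43% of genes, and 1 higher (Xaf1), where it called 4.80%. Limma-voom called 1 lower (Ifitm3) and 0 higher, where it called 0.411% and 1.38% of genes. Without the day 3 libraries edgeR called Ddx58, Ifi27l2a and Psmb8 lower and Xaf1 higher, where 0.739% and 1.41% of genes were called. Without day 6 it called 0 members, where 0.00691% of genes were called lower and 0.124% higher. Without day 10 it also called 0 members, where 0% and 0.0276% of genes were called. Both fits called few genes of any kind, so their 0 says little about the members.

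**Figure D3:**
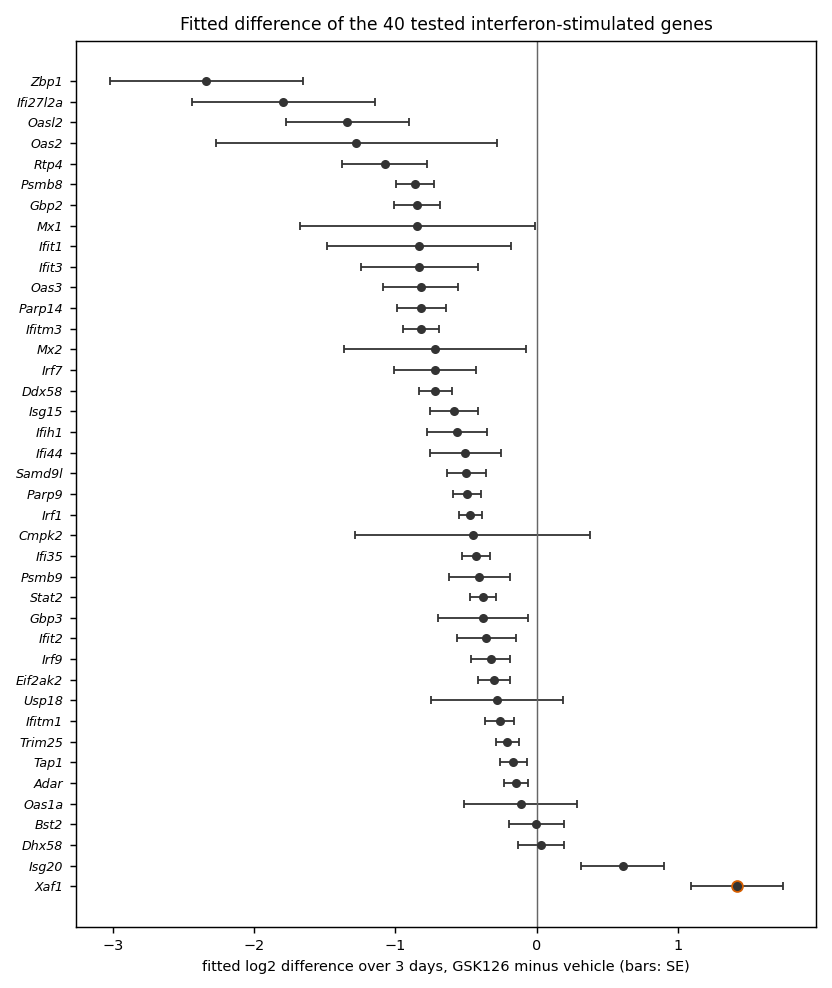
Fitted log2 difference over the 3 days, GSK126 minus vehicle, of the 40 tested members in order of size, with bars of 1 SE from edgeR's quasi-likelihood fit over 3 pairs of libraries. Of the 40 points 37 lie left of 0; Xaf1, outlined in orange, lies at 1.42, and Oas2 has the widest bar (SE 0.99).

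The shift of the ratios after day 3 was asked with a further term for GSK126 on days 6 and 10 against day 3, chosen after the values were seen and fitted with 1 residual degree of freedom. It called 0 of 40 members in either direction, as it called 0% of all genes, while DESeq2 called 2 members lower and 0 higher, where it called 0.216% and 0.209% of genes. On simulated data the edgeR fit found 26.3% of 2-fold changes in this term, so 0 calls do not show that no ratio shifted. At an unadjusted p below 0.05, edgeR had 15 members lower and 1 higher, against 2.47% and 1.68% of genes, and 37 of 40 differences were negative. Ifit1 had the smallest p, with a difference of -2.86 (SE 0.43, edgeR adjusted p = 0.751). Ifi27l2a had -2.76 (SE 0.50) and Usp18 -2.01 (SE 0.47), and Xaf1, the higher one, had 1.40 (SE 0.33). Because this term was chosen for the members' pattern, these values describe it and do not support it.

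The compound was withdrawn on day 6, and a second term set the ratio on day 10 against days 3 and 6, in which withdrawal and time in culture cannot be told apart. It called 0 of 40 members in either direction with edgeR, DESeq2 or limma-voom, and 0% of all genes with edgeR. DESeq2 called 0.0697% of genes higher and 0.0837% lower. On simulated data the edgeR fit found 21.0% of 2-fold changes in this term, so 0 calls do not show that no ratio shifted. At an unadjusted p below 0.05, 0 members were higher and 3 were lower (Ifi44, Ifitm3 and Bst2), against 3.79% and 3.22% of genes. Ifi44 had a difference of -1.06 (SE 0.29, edgeR adjusted p = 0.704). From day 6 to day 10 the median ratio of the 34 members went no nearer to 0 (-0.70 and -0.81), but single members went both ways. Some stood nearer to 0 on day 10, among them Ifit2 (-1.0 and -0.11) and Eif2ak2 (-0.60 and -0.19). Samd9l (-0.87 and -0.42), Ifit3 (-1.67 and -1.15) and Xaf1 (2.20 and 1.55) did so too. Others stood further from it, among them Ifi27l2a (-2.22 and -3.33), Oas2 (-1.72 and -4.17) and Ifitm3 (-0.75 and -1.16). The step from day 6 to day 10 alone was not tested.

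Over both treatments together, Ifitm3, Isg15, Rtp4 and 5 other members fell between day 3 and day 10, and Isg20, Dhx58 and Ifitm1 rose. Between day 3 and day 10, 8 of 40 fell (edgeR adjusted p below 0.05), where 12.5% of genes did, and 3 rose, where 14.1% did. The 8 were Ifitm3 (-0.91, edgeR adjusted p = 0.0175), Rtp4 (-1.43), Isg15 (-1.02), Tap1 (-0.67), Eif2ak2 (-0.60), Adar (-0.47), Stat2 (-0.45) and Trim25 (-0.39). Isg20 rose by 1.69 (edgeR adjusted p = 0.0275), Dhx58 by 0.98 (edgeR adjusted p = 0.0237) and Ifitm1 by 0.49 (edgeR adjusted p = 0.0423). DESeq2 called 15 lower and 4 higher, where it called 14.4% and 16.9% of genes. Scaled by library totals in place of TMM, edgeR called 10 lower and 2 higher, where it called 18.4% and 10.3% of genes. Between day 3 and day 6 edgeR called 0 members, where 0.237% of genes fell and 0.516% rose, with 17 lower and 2 higher at an unadjusted p below 0.05 (12.5% and 13.7% of genes). DESeq2 called 8 lower and 1 higher there, where it called 5.19% and 6.96% of genes.

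The course of each treatment is given here with no test. From day 3 to day 6, the 34 members with a mean of 1 CPM or more shifted by a median of -0.86 on the log2 scale in the GSK126 libraries and by -0.16 in the vehicle libraries. With GSK126, 12 of the 34 were at least 2-fold lower on day 6 than on day 3, where 4.28% of genes were, and with vehicle 1 was, where 0.911% were. From day 6 to day 10 the median shift was 0.11 with GSK126 and 0.16 with vehicle. Ifi27l2a shifted by -2.69 and then -1.79 with GSK126, and by -0.46 and then -0.68 with vehicle. Oas2 shifted by -2.87 and then -2.71 with GSK126, and by -0.10 and then -0.25 with vehicle. These are values between single libraries, and each course shares its libraries with the day ratios above.

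Upstream of the members, transcripts of the interferon genes were close to undetected, and interferon protein was not measured. Ifnl2 and Ifnl3 of the ligand list had no row in the gene table. Of 9 ligand genes in the table, Ifna1, Ifna2, Ifna4, Ifnb1 and Ifng were at 0 in all 6 libraries, and 1 (Ifnk) passed the filter, with 22, 12 and 10 counts with GSK126, against 6, 2 and 10 with vehicle. A count of 0 allows up to 3 fragments, which are 6 deposited counts, in each library, for counting error only. Of 9 receptor and kinase genes tested, 0 passed, where 1.01% of all genes tested rose and 0.272% fell. Jak2, a kinase of the interferon gamma receptor, had 8492, 16510 and 16602 counts with GSK126, against 7442, 7230 and 6952 with vehicle (fitted 0.92, edgeR adjusted p = 0.116). Of 12 sensing adaptors 0 passed, and Tmem173, which encodes the DNA-sensing adaptor STING, had a fitted difference of -0.74 (SE 0.16, edgeR adjusted p = 0.0875). Of 6 feedback regulators 0 passed, and Socs1, an inhibitor of the receptor's kinases, had -0.16.

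Of 44 further interferon-stimulated genes that passed the filter, 40 had negative fits, against 50.2% of all genes tested. The median fitted difference of the 44 was -0.37, and the median ratios by day were -0.04, -0.37 and -0.58. Trim30d, a tripartite motif gene, fell by 0.99 (SE 0.14, edgeR adjusted p = 0.0486). No other gene of the list passed, where 0.272% of all genes tested fell and 1.01% rose. Trim30d was near the threshold. It had 830, 398 and 470 counts with GSK126, against 1360, 956 and 1010 with vehicle. The highest positive fit of the list was Nlrc5, the transactivator of MHC class I genes, with 680, 348 and 208 counts with GSK126, against 326, 104 and 118 with vehicle (fitted 1.24, SE 0.23, edgeR adjusted p = 0.0706).

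Of 9 further antigen presentation genes, 1 fell and 0 rose, where 0.272% and 1.01% of all genes tested did. Tap2, the other subunit of the peptide transporter, had 6544, 4336 and 3944 counts with GSK126, against 9422, 7426 and 6464 with vehicle, and fell by 0.64 (SE 0.07, edgeR adjusted p = 0.0322). Of 10 NF-kB targets, 1 fell and 0 rose, beside the same shares of all genes. Vcam1, an adhesion receptor, had 10272, 5562 and 6400 counts with GSK126, against 15046, 10196 and 10124 with vehicle, and fell by 0.66 (SE 0.08, edgeR adjusted p = 0.0367). The 10 NF-kB targets all had negative fits, as did 50.2% of all genes tested. Their median ratios were -0.27, -0.64 and -0.56 on days 3, 6 and 10.

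**Figure D4:**
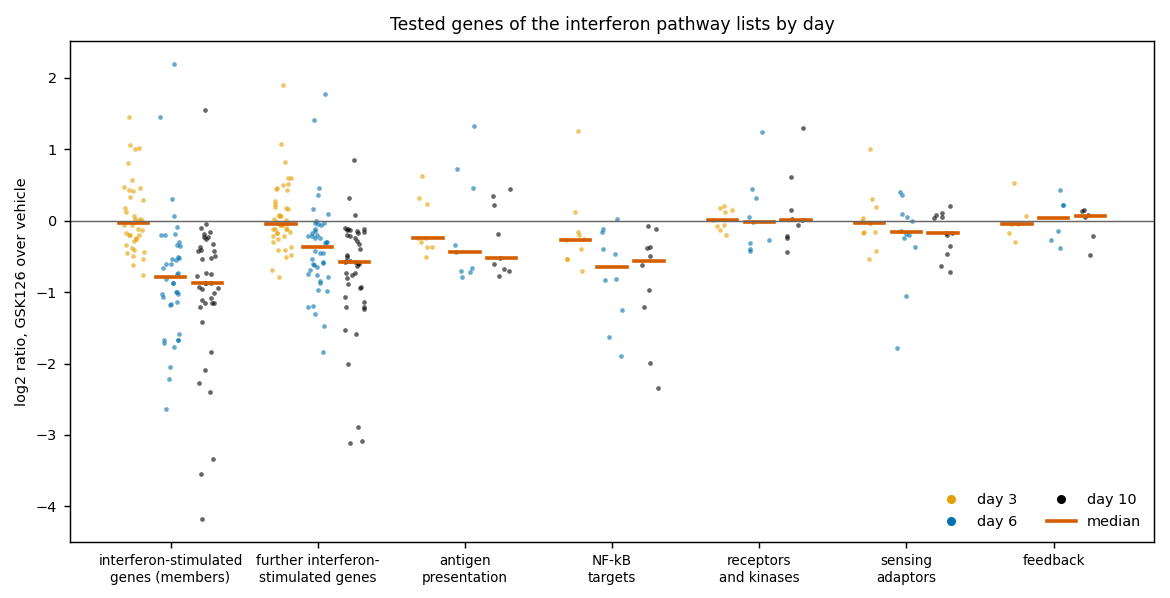
Log2 ratios of GSK126 over vehicle for the tested genes of 7 lists, which are the interferon pathway lists and the NF-kB targets. Points are orange for day 3, blue for day 6 and black for day 10, with bars at the medians and 1 library per treatment and day. The medians of the members and of the further interferon-stimulated genes (-0.04, -0.37 and -0.58) lie near 0 on day 3 and below it later. Those of the receptors and kinases stay near 0. Those of antigen presentation (-0.25, -0.43 and -0.52) and of the NF-kB targets (-0.27, -0.64 and -0.56) lie below 0 on each day.

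H3K27me3 24 hours after the first dose was called over few members in either treatment. The authors called islands once per treatment from 1 ChIP library and its input, 24947 with GSK126 and 34498 with vehicle, so shares are given with no test. Of 32 members with a known strand, 3 had an island over the gene or up to 2 kb upstream with GSK126 (Adar, Ifit1 and Ifit3), where 16.8% of 15716 genes did, and 1 with vehicle (Ifit1), where 19.6% did. Among genes with a mean of 1 CPM or more the shares were 6.51% with GSK126 and 7.45% with vehicle. In the authors' deposited table the Ifit1 island lay at chr19:34641601-34652800 with a ratio of ChIP to input of 2.61 with GSK126, and at chr19:34641401-34652200 with 2.11 with vehicle (mm10). In the authors' deposited table the Adar island of the GSK126 list lay at chr3:89706201-89713800 with a ratio of 2.98, and the Ifit3 island at chr19:34586001-34599800 with 1.16. Xaf1 had no island in either list. Over gene bodies alone, which need no strand, 3 of 42 members had an island with GSK126 (Ifit1, Ifit3 and Usp18), where 14.8% of genes did, and 4 with vehicle (Ifit1, Oas2, Usp18 and Zbp1), where 17.1% did. Among genes with a mean of 1 CPM or more, the gene body shares were only 4.10% and 4.43%. The 42 members, 8 of them under 1 CPM, stood above these at 7.14% and 9.52%. With up to 5 kb upstream counted, 5 of the 32 members (15.6%) had an island with GSK126 and 5 with vehicle. Of all genes, 20.1% and 23.8% did, and of those with a mean of 1 CPM or more 10.8% and 13.4%. The treatments did not differ in that count of members. Adar, Gbp2, Ifit1 and Samd9l were in both lists, Ifit3 with GSK126 only and Stat2 with vehicle only.

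Some members share reads or positions with other genes. The library kit does not mark strand, so reads of Parp9 and the overlapping Dtx3l, and of Adar and the overlapping Chrnb2, cannot be told apart where they overlap. Ifit1, Ifit3, Oas1a, Oasl1, Oasl2, Mx1, Mx2 and Ifi27l2a have close relatives, and their counts are uncertain to the extent that the authors' counting split shared reads.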

How the data were processed

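The 42 genes, the other lists and the tests were chosen with earlier results of these data known. RNA was sequenced in 6 libraries and H3K27me3 ChIP with input in 4, each placed in its group by its title. Per the submitters' processing notes, the tools were CASAVA 1.9, BWA 0.5.9, SICER 1.1, TopHat2 2.0.6 and HTSeq 0.5.3p9 on mm10, with no role or setting stated. How reads were assigned to genes was not given in the sources used here. Deposited by the authors were raw counts per gene, all of them even, and RPKM values per gene. The deposited island lists give, per the layout that SICER writes, for each island its reads in ChIP and in input, a p-value and a ratio (fold) of ChIP over input, with 1 list per treatment. Island starts were raised by 1 to be 1-based.

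The test was that of edgeR 4.0.16 under R 4.3.3 (TMM, filterByExpr on treatment, quasi-likelihood F test, Benjamini-Hochberg adjustment over 14344 genes, threshold 0.05), with day and treatment as terms and 2 residual degrees of freedom. Each SE was taken as the size of the difference over the square root of its F, which borrows spread from other genes. The spread behind each p is how the difference between treatments varied between days, since each treatment had 1 library on a day. It holds any change of the response with time as well as noise among these libraries, which may be technical. The biological coefficient of variation that edgeR fitted, 14.8%, is of that same spread and does not measure replicate cultures. Fits with a further term had 1 residual degree of freedom. Day ratios used a prior count of 2, and their exact binomial intervals used counts divided by 2 and cover counting error only. DESeq2 1.42.0, limma-voom (limma 3.58.1), library totals, no filter, Rn45s left out, counts divided by 2, no day term and leaving out each day were alternatives. The edgeR fits were tested on simulated data. Of 2-fold changes put in, they found 80.8% for the GSK126 term, 75.9% for day 10 and 70.1% for day 6. They found 26.3% for days 6 and 10 against day 3, and 21.0% for day 10 against days 3 and 6. False calls were 2.75% to 6.31% of the calls. Rn45s, the ribosomal RNA precursor, held 4.37% to 7.47% of counts. Promoters came from a RefSeq table on GRCm38.p6, which held 32 of the 42 members. All 42 members are named, and the genes most like Xaf1 and most like the members' median are the 5 nearest of each among genes with a mean of 1 CPM or more. RPKM was used only for levels between genes.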

Additional observations from a re-analysis of the deposited data

Results flagged for a closer look

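The GSK126 ratio of 6 of 42 members lay on opposite sides of 0 on different days beyond the counting interval of each library pair. Such pairs of days were found in 16.6% of all genes tested, so the share of members is near the background. The differences between days rest on single libraries and were not tested as such. For Ifit1 the log2 ratio was 1.02 on day 3, -1.77 on day 6 and -1.84 on day 10. For Oas2 it was 1.05, -1.72 and -4.17 on those days. For Usp18 it was 1.00, -1.07 and -0.87. Cmpk2 had 1.46 on day 3 and -2.05 on day 6, on 58 and 6 counts with GSK126, against 20 and 32 with vehicle. Bst2 had 0.42 on day 3 and -0.50 on day 10. Dhx58 had 0.31 on day 6 and -0.33 on day 10.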

How the results depend on the processing

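Under another prior count and under library totals, the members' median ratios moved by less than the typical half-width of a single member's counting interval. That half-width was 0.20, 0.25 and 0.20 on days 3, 6 and 10, and it is not the error of a median over 42 genes. The day 10 median was -0.72 with a prior count of 10, against -0.87 with a prior count of 2. For the GSK126 term, members called lower numbered 13 with DESeq2, 1 with limma-voom and 2 with no filter on low counts (Ifitm3 and Psmb8). These called 4.43%, 0.411% and 0.341% of genes lower. The edgeR test called 0 members lower, where it called 0.272% of genes. Leaving out each day in turn gave 0 to 3, where 0% to 0.739% of genes were called lower. Members called higher numbered 1 with DESeq2, where it called 4.80% of genes. Leaving out each day gave 0 to 1, where 0.0276% to 1.41% of genes were called higher. Library totals, Rn45s left out and counts divided by 2 gave 0 in both directions. They called 0.222% to 0.328% of genes lower and 1.00% to 1.29% higher. The fit with no day term also gave 0, but it called 0 of 14344 genes in either direction. DESeq2 called 15 members lower between day 3 and day 10, where it called 14.4% of genes. Between day 3 and day 6 it called 8 lower and 1 higher, where it called 5.19% and 6.96%. For days 6 and 10 against day 3 it called 2 lower, where it called 0.216%. Library totals moved the median fitted difference of all genes by -0.0993 for day 10 and by -0.10 for day 6 against day 3. Some fitted differences changed sign. In the edgeR test these ran from -0.45 (SE 0.83) for Cmpk2 to 0.03 (SE 0.16) for Dhx58. Bst2 was 0.25 without day 10, Cmpk2 0.38 without day 6 and Oas1a 0.22 without day 10. Dhx58 was -0.0057 without day 3, -0.11 without day 6 and -0.021 with no day term. Usp18 was 0.0062 with limma-voom, 0.14 without day 6, 0.015 without day 10 and 0.090 with no day term. Islands up to 5 kb upstream touched 5 members with GSK126 and 5 with vehicle (20.1% and 23.8% of genes), and gene bodies alone 4 with vehicle (17.1% of genes). Among genes with a mean of 1 CPM or more, these 3 shares were 10.8%, 13.4% and 4.43%. The cause was not tested in any of these. The labels carry no replicate numbers; the day term pairs the GSK126 and vehicle libraries of a day, and the fit with no day term is the unpaired one. With 1 library per treatment and day, single days have no replicate error, and the 8 members under 1 CPM rest on 0 to 92 counts per library.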

Other observations

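Within the antigen presentation list, the fitted differences took 2 directions. The class I heavy chain genes H2-K1 and H2-D1 and their light chain B2m had positive fits, none of which passed the test. H2-K1 had 6746, 9378 and 6908 counts with GSK126 on days 3, 6 and 10, against 4446, 3882 and 5226 with vehicle (fitted 0.79, SE 0.18, edgeR adjusted p = 0.0935). H2-D1 had 0.46 (SE 0.10, edgeR adjusted p = 0.0934) and B2m 0.31 (SE 0.09, edgeR adjusted p = 0.139), and all 3 were above vehicle on 3 of 3 days. The genes that make and load peptides had negative fits: Tapbp, the loading factor tapasin, -0.59, the immunoproteasome subunit Psmb10 -0.61, the proteasome activators Psme1 -0.54 and Psme2 -0.40, and the trimming enzyme Erap1 -0.28, with Tap2 as described. Members Tap1, Psmb8 and Psmb9 had -0.17, -0.86 and -0.41.

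Among NF-kB targets, the chemokine gene Ccl2 had 312, 34 and 56 counts with GSK126, against 518, 136 and 234 with vehicle (fitted -1.51, SE 0.32, edgeR adjusted p = 0.0883). Its neighbour Ccl7 had log2 ratios of -0.40, -1.63 and -2.35 on days 3, 6 and 10 (fitted -1.45, SE 0.44, edgeR adjusted p = 0.164). Both chemokine genes were lower with GSK126 on 3 of 3 days.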
